A study of Bos taurus with 79 samples.

Results

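The comparison covers the endometrium of cyclic heifers with normal progesterone on day 16 of the oestrous cycle, set against the same kind of heifers on day 13. These were 10 of the 79 samples, 5 heifers on day 16 and 5 on day 13, and their labels alone decided which samples belonged. The comparison itself was chosen with earlier results of these data known. All were cross-bred beef heifers whose cycles had been synchronised, and they were assigned to a day of slaughter at random. Each sample was 1 heifer, from whose endometrial strips total RNA was hybridised to 1 Affymetrix bovine array. Strips of endometrium hold luminal and glandular epithelium, stroma, vessels and immune cells together, so fewer cells of a type and less RNA per cell cannot be told apart in any value below. The label for these heifers is CN, for cyclic with normal progesterone. They were not inseminated and carried no device. Courses over the same days in 3 other kinds of heifer, 5 arrays a day each, serve as comparisons. PN heifers were pregnant with normal progesterone. CH heifers were cyclic and PH heifers pregnant, and both carried a progesterone releasing intravaginal device (PRID) from day 3 until slaughter. Pregnant heifers were taken only once pregnancy was verified.

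Day 13 to day 16 is the end of the luteal phase in cattle. Progesterone from the corpus luteum has by then acted on the uterus for many days, receptors for it have been lost from the epithelium, and the glands and surface epithelium secrete and transport the nutrients called histotroph into the uterine lumen. In an animal that is not pregnant, epithelial oxytocin receptors then appear, oxytocin drives pulses of prostaglandin F2 alpha, and the corpus luteum regresses. In a pregnant animal interferon tau from the conceptus prevents this.

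Values are log2 levels per probe set, so that a difference of 1 is a 2-fold change. A difference was called when its Benjamini-Hochberg adjusted p in limma was under 0.05 over all 24016 probe sets, and every adjusted p below is from that test. A difference is given as day 16 minus day 13 with its standard error, a level with its standard deviation (SD, n = 5 heifers), and a named gene stands for its brightest probe set. Values under 3 lie near the floor of these arrays, where differences are compressed. Between CN days 16 and 13, 160 probe sets were called (0.666% of those tested), 68 higher and 92 lower on day 16. They represented 81 of 9155 named genes (0.885%), of which 33 were higher (0.36%) and 48 lower (0.524%). The falls were larger than the rises: 36 of the 48 lower genes differed by at least 2-fold, against 13 of the 33 higher ones. In 60 of the 81 no day 16 array overlapped a day 13 array, and such separation occurred in 3.7% of all genes, upward in 2.01% and downward in 1.69%. None of the 10 arrays stood far from its group: the SD of an array's deviations from its group mean was 0.238 to 0.338, under the limit of 0.45. The medians of the 10 arrays were 4.99 to 5.08 and their correlations with each other 0.980 to 0.991.

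**Figure D1:**
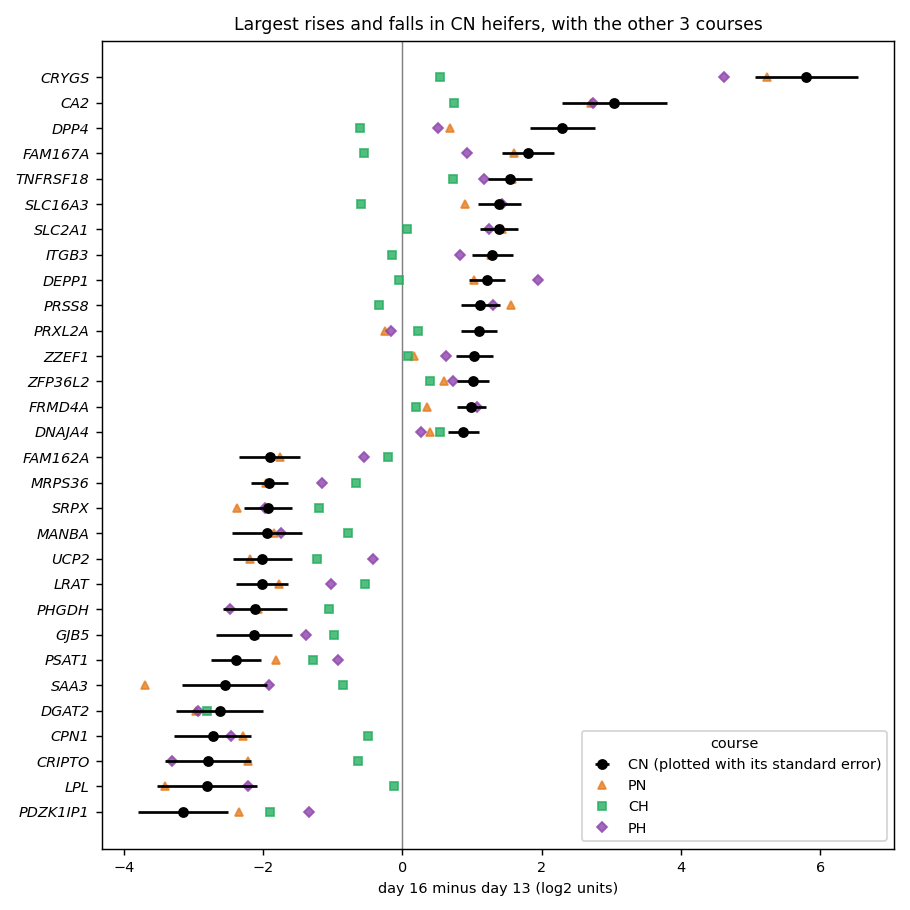
Day 16 minus day 13 in log2 units for the 15 largest rises and 15 largest falls among called genes in CN heifers, drawn as black points with standard errors, and the same difference in PN (orange), CH (green) and PH (purple) heifers. CRYGS stands at the top with 5.80 and PDZK1IP1 at the bottom with -3.15, and the CH points lie nearer to 0 than the CN points for every gene shown except DGAT2.

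Among called genes the largest rises were those of CRYGS, CA2, DPP4, FAM167A and TNFRSF18, ahead of the carriers SLC16A3 and SLC2A1. Some genes without a call had differences as large, among them OXTR at 2.92, which is described below. CRYGS, the structural crystallin gamma S of the eye lens, had levels of 8.68, 9.79, 7.26, 9.69 and 8.26 on the 5 day 16 arrays, against 2.44, 5.36, 2.18, 2.49 and 2.22 on the 5 day 13 arrays. The groups did not overlap, and 4 of the 5 day 13 arrays were near the floor, so its difference of 5.80 ± 0.745 (adjusted p = 8.69e-07) is a lower limit. CA2, the cytosolic carbonic anhydrase that interconverts carbon dioxide and bicarbonate, had 10.71, 11.60, 10.87, 11.89 and 9.45 on day 16, against 7.83, 7.76, 8.78, 9.03 and 5.91 on day 13. All day 16 arrays lay above all day 13 arrays, with a difference of 3.04 ± 0.755 (adjusted p = 0.0308). DPP4, a dipeptidyl peptidase of the cell surface, had 9.47, 8.39, 8.55, 9.54 and 8.95 on day 16, against 7.55, 7.30, 5.64, 7.43 and 5.50 on day 13, a difference of 2.29 ± 0.47. Here too the groups were separate, and the day 13 arrays split into 3 between 7.30 and 7.55 and 2 at 5.50 and 5.64. A dimmer DPP4 probe set differed by 1.98 without a call (adjusted p = 0.137).

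Carriers of glucose and of lactate rose. SLC2A1, the facilitative glucose transporter GLUT1, averaged 11.33 ± 0.28 on day 16 and 9.95 ± 0.603 on day 13, a difference of 1.39 ± 0.272 (adjusted p = 0.00242). SLC16A3, which exports lactate with a proton, had 6.88, 6.97, 5.99, 6.88 and 6.25 on day 16, against 4.66, 4.67, 5.92, 5.52 and 5.24 on day 13. The lowest day 16 array lay just above the highest day 13 array, and the difference was 1.39 ± 0.31 (adjusted p = 0.00976). Its other 2 probe sets differed by 0.00 and 0.09, so the rise rests on the brightest of 3. These were the 2 called members of 27 measured genes of hexose transport and glycolysis. Over all genes 0.885% were called, the share to set beside the count of each list below. The list had a median difference of 0.128, beside 0.000936 over all genes, and 16 of its members had positive differences. At an unadjusted p under 0.05 it held 6 genes, beside 10.6% of all genes. Among the glycolytic enzymes TPI1 differed by 0.45 ± 0.142 and PGK1 by 0.38 ± 0.175, each without overlap but with adjusted p of 0.155 and 0.5, while LDHA, a lactate dehydrogenase, stood at -0.55 ± 0.218. The sodium-coupled glucose carrier SLC5A1 differed by -0.09 ± 0.466, at a level of 9.54 on day 16 and 9.63 on day 13. Of 21 hypoxia response genes SLC2A1 was the only one called, 15 had positive differences, and the list median was 0.166. In that list 7 genes had an unadjusted p under 0.05.

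At the cell surface, ITGB3, the beta 3 integrin subunit, had 10.62, 10.67, 11.40, 11.13 and 10.37 on day 16, against 9.35, 9.35, 9.60, 9.75 and 9.68 on day 13. The groups were clearly apart, with a difference of 1.29 ± 0.29 (adjusted p = 0.0107). Its 3 other probe sets differed by -0.005, 0.43 and 1.05 and were not called. Of 28 measured integrin, laminin and collagen genes, ITGB3 rose and THBS1, which codes for the matrix glycoprotein thrombospondin 1, fell to 9.60 ± 0.202 on day 16, against 10.59 ± 0.246 on day 13. THBS1 differed by -0.999 ± 0.209 (adjusted p = 0.00541), and a second of its probe sets was called at -1.05, whereas its 4 other probe sets had differences of 0.25, 1.08, 0.08 and 1.41 that were not called. ITGA3 was separate without a call at 0.82 ± 0.251 (adjusted p = 0.13), and ITGB4 at -0.96 ± 0.378 (adjusted p = 0.357). PRSS8, the membrane serine protease prostasin, averaged 8.98 ± 0.42 on day 16 and 7.86 ± 0.649 on day 13, a difference of 1.12 ± 0.275 (adjusted p = 0.0276). Its groups overlapped through day 13 array 4 at 8.97. DPP4 and PRSS8 were the called members among 34 proteases and inhibitors, whose median difference was 0.044. ANPEP, an aminopeptidase, and MEP1B, a meprin subunit, differed by -0.54 ± 0.503 and -0.01 ± 0.442.

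TNFRSF18, the tumour necrosis factor receptor family member GITR, averaged 5.91 ± 0.398 on day 16 and 4.37 ± 0.571 on day 13, a difference of 1.54 ± 0.317 (adjusted p = 0.00456) without overlap. FAM167A had 6.59, 7.30, 7.85, 7.08 and 6.34 on day 16, against 4.76, 5.08, 5.61, 5.84 and 4.83 on day 13, again without overlap and with a difference of 1.81 ± 0.373. The other genes among the 15 largest called rises ranged from 1.22 to 0.87. They were DEPP1, a gene of the FOXO pathway, PRXL2A, a peroxiredoxin-like redox protein, ZZEF1, ZFP36L2, an RNA-binding zinc finger protein that destabilises messenger RNAs, FRMD4A, a scaffold protein, and DNAJA4, a cochaperone of heat shock protein 70. FKBP4, the immunophilin cochaperone of steroid receptors, rose to 9.44 ± 0.19 on day 16, against 8.65 ± 0.142 on day 13, without overlap (0.79 ± 0.205, adjusted p = 0.0456). It was the called member of 18 steroid receptor and hormone metabolism genes. The receptors ESR1 and PGR were near the floor on both days at 2.32 and 2.44 on day 16 and 2.37 and 2.50 on day 13, so that these probe sets carry little information. The receptors ESR2, at 7.33 on day 16 and 7.655 on day 13, and NR3C1, at 6.906 and 7.087, lay above the floor and were not called.

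Smaller rises, named here after their values were seen, included factors of translation and RNA modification. EIF3I, EIF2B4 and EIF1, which code for translation initiation factors, differed by 0.57 ± 0.147, 0.42 ± 0.11 and 0.30 ± 0.0774. MRPS18B, a mitochondrial ribosomal protein, differed by 0.61 ± 0.138, METTL3, the catalytic subunit of the N6-adenosine RNA methyltransferase, by 0.59 ± 0.11 and DPH2, an enzyme of diphthamide synthesis, by 0.50 ± 0.128. In each of these 6 all day 16 arrays lay above all day 13 arrays, as in 27 of the 33 called rises and 2.01% of all genes. No list of translation or RNA modification genes was among the 35 examined. METTL3 kept its call in every omission of 1 array, though its other 2 probe sets, at 0.46 and 0.61, were not called, whereas EIF3I, EIF2B4, EIF1 and DPH2 lost theirs in 7 to 9 of the 10 omissions. A further probe set of EIF1 differed by 0.01. GDI2, which recycles Rab GTPases, differed by only 0.41 ± 0.0862 but lay between 11.34 and 11.51 on day 16 and between 10.88 and 11.12 on day 13. RRM1, the large subunit of ribonucleotide reductase, rose by 0.87 ± 0.168 (adjusted p = 0.00188), whereas TK1, the cytosolic thymidine kinase, differed by -1.17 ± 0.275 (adjusted p = 0.0178). These were the called members of 36 cell cycle genes, whose median difference was 0.00161 and of which 14 were near the floor. DHX34, BCL6B and ASAP1 were called with levels near the floor on both days (1.85 to 2.42), and their differences of 0.50, 0.30 and 0.35 came from 2 or 3 day 16 arrays that stood above the others.

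**Figure D2:**
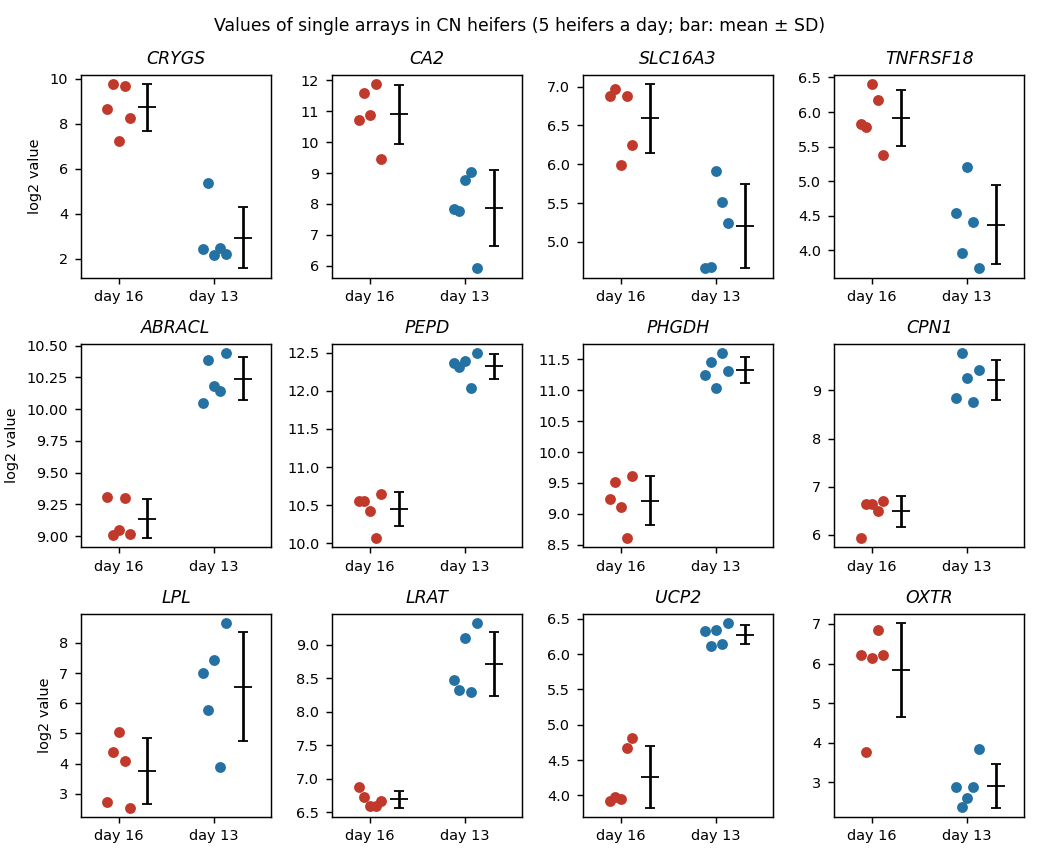
Log2 values of the 5 day 16 arrays (red, left) and the 5 day 13 arrays (blue, right) for 12 genes in CN heifers, with the mean and SD of each day as a black bar. The groups are separate in 10 of the panels and overlap for LPL, through day 13 array 4 at 3.88, and for OXTR, through day 16 array 2 at 3.77.

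The falls included PSAT1 and PHGDH of serine synthesis, LPL and DGAT2 of lipid metabolism, the Nodal co-receptor CRIPTO, LRAT, UCP2 and TXNRD1. PSAT1, the aminotransferase of serine synthesis, had 8.45, 8.998, 8.65, 8.74 and 8.32 on day 16, against 11.58, 10.41, 10.66, 10.65 and 11.82 on day 13. The days were more than 1 unit apart at their closest arrays, the difference was -2.39 ± 0.357 (adjusted p = 2.03e-05), and its 2 other probe sets were called at -2.46 and -2.22. PHGDH, the dehydrogenase of the first step of that pathway, had 9.24, 9.51, 9.11, 8.61 and 9.60 on day 16, against 11.25, 11.46, 11.03, 11.60 and 11.32 on day 13, a difference of -2.12 ± 0.459 (adjusted p = 0.00768). It too was lower in every day 16 heifer. The phosphatase of the last step, PSPH, differed by -1.20 ± 0.52 (adjusted p = 0.45) with overlapping groups. Of 20 measured serine and one-carbon genes PSAT1 and PHGDH were called, and the median difference was -0.0212. At an unadjusted p under 0.05 the list held 5 genes, beside 10.6% of all genes. MTHFD1L, a mitochondrial one-carbon enzyme, was separate without a call at -1.41 ± 0.421 (adjusted p = 0.113), while MTHFD2 stood at -0.13 ± 0.476 and ATF4, a transcription factor that drives serine synthesis genes, at 0.15 ± 0.124.

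In lipid metabolism, LPL, the lipase that frees fatty acids from circulating lipoproteins, had 2.71, 4.37, 5.05, 4.09 and 2.54 on day 16, against 7.02, 5.77, 7.43, 3.88 and 8.67 on day 13. Day 13 array 4 lay within the day 16 range, and the difference was -2.80 ± 0.716 (adjusted p = 0.038). DGAT2, the acyltransferase of the last step of triglyceride synthesis, had 4.72, 4.92, 5.51, 4.36 and 4.46 on day 16, against 8.73, 7.25, 6.11, 7.90 and 7.09 on day 13. Its groups were separate, with a difference of -2.62 ± 0.622 (adjusted p = 0.0195). LPL and DGAT2 were the called members of 29 triglyceride and fatty acid genes, whose median difference was -0.0948. Of the 29, 11 were positive and 18 negative, and 10 had an unadjusted p under 0.05, beside 10.6% of all genes. PLIN2, which coats lipid droplets, was separate without a call at -0.93 ± 0.32 (adjusted p = 0.236). The fatty acid binding protein FABP3 (1.73 ± 0.698), the desaturase SCD (1.03 ± 0.378) and the fatty acid synthase FASN (0.67 ± 0.226) had positive differences that were not called (adjusted p = 0.387, 0.296 and 0.211). Outside that list, SLC25A20, the carrier of acylcarnitines into mitochondria, fell to 6.81 ± 0.315 on day 16, against 7.98 ± 0.505 on day 13 (-1.17 ± 0.191, adjusted p = 0.000143), with a second probe set also called at -0.81. EPHX2, the soluble epoxide hydrolase of fatty acid epoxides, differed by -1.35 ± 0.351 (adjusted p = 0.0436), and overlapped through day 13 array 4. Its other probe set differed by 0.02.

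Cholesterol synthesis genes had positive differences without a call. Of 19 measured members 16 were positive, none passed, and the median was 0.362, beside 0.000936 over all genes, with 9 members at an unadjusted p under 0.05, beside 974 of all 9155 genes (10.6%). INSIG1, the sterol-regulated membrane protein that retains SREBP precursors, differed by 1.13 ± 0.318 (adjusted p = 0.0764), with day 16 array 5 at 9.06 below day 13 array 4 at 9.26. HMGCS1, the synthase at the head of the pathway, was separate at 0.89 ± 0.262 (adjusted p = 0.0991), as was MVD, a decarboxylase of the mevalonate pathway, at 0.90 ± 0.312 (adjusted p = 0.24).

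LRAT, the enzyme that esterifies retinol for storage, had 6.88, 6.73, 6.59, 6.59 and 6.67 on day 16, against 8.48, 8.33, 9.11, 8.29 and 9.33 on day 13. The day 16 arrays lay close together, well under the lowest day 13 array, and the difference was -2.02 ± 0.37 (adjusted p = 0.00105). UCP2, a carrier of the inner mitochondrial membrane, had 3.91, 3.98, 3.95, 4.67 and 4.81 on day 16, against 6.33, 6.12, 6.34, 6.14 and 6.44 on day 13. All 5 day 16 heifers lay below the narrow range of day 13 (-2.01 ± 0.425, adjusted p = 0.00597). MRPS36, a small mitochondrial protein first named as a ribosomal subunit, averaged 10.14 ± 0.228 on day 16 and 12.05 ± 0.604 on day 13 (-1.91 ± 0.265, adjusted p = 6.34e-06). FAM162A, a mitochondrial protein, differed by -1.91 ± 0.439 (adjusted p = 0.0141), and its day 13 array 4 at 8.17 lay below day 16 array 5 at 8.25. None of 33 respiratory chain genes was called, and their median difference was 0.0483, with 2 at an unadjusted p under 0.05, beside 10.6% of all genes. TXNRD1, the cytosolic thioredoxin reductase, averaged 9.31 ± 0.267 on day 16 and 10.91 ± 0.329 on day 13, without overlap (-1.60 ± 0.301, adjusted p = 0.00145). It was the called member of 26 redox and metal response genes, among which GSTA2, a glutathione transferase, was separate in the other direction without a call at 2.02 ± 0.535 (adjusted p = 0.0522). TST, a mitochondrial sulfurtransferase that detoxifies cyanide, differed by -1.75 ± 0.369 (adjusted p = 0.00597), with day 16 array 5 above day 13 array 4.

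CRIPTO, the membrane co-receptor of the Nodal pathway, had 10.25, 11.24, 10.46, 10.28 and 10.54 on day 16, against 13.46, 13.00, 13.45, 12.88 and 13.95 on day 13. The days were far apart, with a difference of -2.80 ± 0.617 (adjusted p = 0.00926), and day 16 array 2 was the highest of its day. It was the called member of 25 TGF beta, activin and Nodal genes, whose median difference was -0.0585. WNT11, a secreted Wnt ligand, averaged 3.57 ± 0.574 on day 16 and 5.22 ± 0.429 on day 13 without overlap (-1.65 ± 0.433, adjusted p = 0.0483). It was the called member of 20 Wnt pathway genes. The secreted Wnt antagonist DKK1 had 8.38, 9.14, 7.94, 7.36 and 7.03 on day 16, against 9.36, 9.79, 9.33, 9.74 and 9.28 on day 13. It was lower in every day 16 heifer, but its difference of -1.53 ± 0.681 was not called (adjusted p = 0.475). MSX1, a homeobox transcription factor of uterine epithelium, differed by -0.71 ± 0.158 (adjusted p = 0.0104) without overlap, and its other probe set by -0.67 (adjusted p = 0.0764). Together with CRYGS it made up the called members of 34 histotroph and progesterone response genes, whose median difference was -0.0293. The lists were chosen with earlier results of these data known, so this count is not a test of the list. LTF, the iron-binding protein lactoferrin, was separate without a call at -1.94 ± 0.772 (adjusted p = 0.367), while its other probe set differed by -0.006. None of 34 growth factors and receptors was called, with 4 at an unadjusted p under 0.05, beside 10.6% of all genes. IGFBP2 differed by 1.42 ± 0.667 and IGFBP3 by 0.89 ± 0.315, both binding proteins of insulin-like growth factors.

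The peptidases CPN1 and PEPD and the lysosomal enzyme MANBA also fell. CPN1, the catalytic subunit of the secreted carboxypeptidase N, had 5.94, 6.65, 6.65, 6.50 and 6.71 on day 16, against 8.85, 9.77, 9.26, 8.76 and 9.43 on day 13. It differed by -2.72 ± 0.551 (adjusted p = 0.00388) with more than 2 units between the closest arrays, and its other probe set was called at -1.76. PEPD, the peptidase of dipeptides that end in proline, lay between 10.07 and 10.64 on day 16 and between 12.04 and 12.49 on day 13 (-1.87 ± 0.324, adjusted p = 0.000465). MANBA, the lysosomal beta-mannosidase, differed by -1.95 ± 0.498 (adjusted p = 0.039). PDZK1IP1, a small membrane-associated protein, had 5.39, 5.63, 6.81, 4.92 and 3.47 on day 16, against 7.87, 9.01, 8.82, 8.26 and 8.01 on day 13, and fell by 3.15 ± 0.643 (adjusted p = 0.00425). SAA3, an acute phase serum amyloid A whose family members have near-identical sequences, had 9.04, 8.82, 8.98, 7.19 and 8.30 on day 16, against 12.26, 8.79, 12.08, 11.42 and 10.53 on day 13. Day 13 array 2 lay among the day 16 arrays, and the difference was -2.55 ± 0.608 (adjusted p = 0.0202). SAA3 was the called member of 40 complement, cytokine and chemokine genes, of which 19 were near the floor. GJB5, a connexin of gap junctions, differed by -2.13 ± 0.54 (adjusted p = 0.0361) and SRPX, a sushi repeat protein, by -1.93 ± 0.346 (adjusted p = 0.00077), each without overlap.

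ABRACL, whose heifers differed little within a day, lay between 9.01 and 9.31 on day 16 and between 10.05 and 10.44 on day 13. Its difference of -1.10 ± 0.162 had an adjusted p of 1.61e-05. Further falls outside the 15 largest, named after their values were seen, included NEBL, an actin-binding protein of the nebulin family (-1.46 ± 0.313, with further probe sets called at -1.58 and -1.57 and 1 at 0.01) and ASRGL1, an asparaginase-like enzyme (-1.32 ± 0.291). CNOT1, the scaffold of the deadenylase complex that shortens messenger RNA tails, averaged 11.09 ± 0.215 on day 16 and 12.12 ± 0.285 on day 13 (-1.03 ± 0.222, adjusted p = 0.00768). RTN3, a protein that shapes the endoplasmic reticulum, differed by -0.69 ± 0.141 (adjusted p = 0.00426). SMS, the spermine synthase, differed by -1.11 ± 0.291 (adjusted p = 0.0473) with overlap, and its other probe set by -0.13 (adjusted p = 0.74). A further 6 genes were called by a probe set other than their brightest: CYB5B (-1.15), EED (-2.46), LPCAT3 (-0.77), PHLDB2 (1.00), UBE3B (0.68) and IQCA1 (1.68). EED, a subunit of the Polycomb repressive complex that methylates histone H3, had -0.11 for its brightest probe set, so its probe sets disagree.

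**Figure D3:**
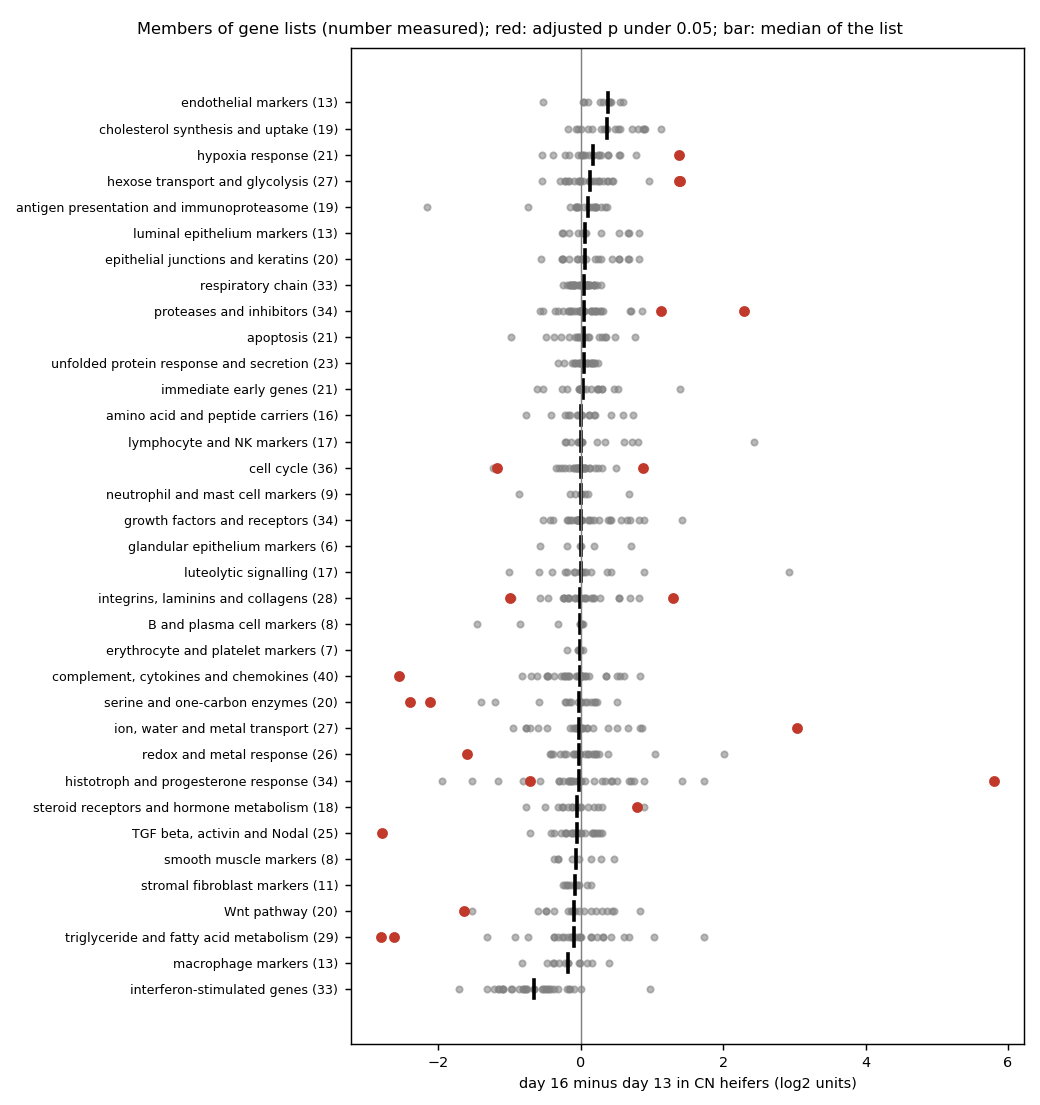
Day 16 minus day 13 in CN heifers, in log2 units, for each measured member of 35 gene lists (1 row a list, number measured in brackets), with called members in red and the median of the list as a black bar. Called members number at most 2 in any list, and the medians lie between -0.664 for interferon-stimulated genes and 0.388 for endothelial markers.

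None of the 17 measured genes of luteolytic signalling was called, at a median difference of -0.00365, with 6 at an unadjusted p under 0.05 (10.6% over all genes). OXTR, the oxytocin receptor, had 6.22, 3.77, 6.15, 6.85 and 6.21 on day 16, against 2.87, 2.38, 2.61, 2.88 and 3.83 on day 13. On day 16 4 of 5 heifers were above 6, and the fifth was lower than day 13 array 5, which alone of its day stood above 3. The adjusted p was 0.0764 for a difference of 2.92 ± 0.822, a lower limit because the day 13 mean was near the floor. PTGS2, the inducible cyclooxygenase that starts prostaglandin synthesis, was at 8.85 ± 0.554 on day 16 and 8.94 ± 0.664 on day 13. AKR1B1, a reductase with prostaglandin F synthase activity, was separate at -0.59 ± 0.268 (adjusted p = 0.5). The prostaglandin E2 receptors PTGER4 and PTGER2 differed by -1.01 ± 0.312 (adjusted p = 0.137) and 0.89 ± 0.273 (adjusted p = 0.127). CA2 was the called member of 27 genes of ion, water and metal transport, and its list median was -0.0226. None was called among 16 amino acid and peptide carriers, 20 junction and keratin genes, 21 immediate early genes, 19 antigen presentation genes, 23 genes of the unfolded protein response or 21 apoptosis genes. At an unadjusted p under 0.05 these lists held 3, 1, 2, 1, 0 and 4 genes, against 10.6% of all genes. Among the apoptosis genes CASP9, an initiator caspase, was separate at -0.98 ± 0.308 (adjusted p = 0.155).

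Interferon-stimulated genes, which respond to interferon from a conceptus, had levels on day 13 that differed between CN heifers. The mean over 33 measured members was 7.61 on day 13 array 1 and 7.43 on array 4, and 6.72, 6.32 and 6.08 on arrays 2, 3 and 5. On day 16 it lay between 5.95 and 6.31. None was called, 32 of the 33 differences were negative and the list median was -0.664, with 4 members at an unadjusted p under 0.05, beside 10.6% of all genes. ISG15, a ubiquitin-like modifier, had 7.79, 7.66, 7.20, 6.55 and 6.68 on day 16, against 10.97, 8.32, 7.13, 10.81 and 7.24 on day 13, so arrays 1 and 4 of day 13 stood above all others. IFI6 differed by -1.32 ± 0.811. The exception in sign was HERC5, a ligase for ISG15, at 0.97 ± 0.266 (adjusted p = 0.0628).

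Markers of the tissue were present on both days. The epithelial adhesion molecule EPCAM was at 13.28 on day 16 and 13.25 on day 13, KRT18 at 10.29 on day 16 and 10.01 on day 13, and the stromal filament VIM at 12.64 on day 16 and 12.49 on day 13, while KRT8, SPINK1 and PAEP were near the floor on both days. Of the 10 glandular markers written 6 were measured, 2 of them near the floor, so glands are only partly represented among the markers. Their list means were 4.66 to 5.54 on day 16 and 4.72 to 5.23 on day 13, and the amount of gland in the strips was not tested. No member of the marker lists was called. GNLY, a lymphocyte and natural killer cell marker, averaged 6.41 on day 16 and 3.98 on day 13 (2.43 ± 0.926, adjusted p = 0.333). Of the 17 markers on its list 9 were positive and 8 negative, with a list median of 0.00627. At an unadjusted p under 0.05 that list held 3 genes, beside 10.6% of all genes. Of 11 stromal markers measured 2 had positive differences, VIM among them, and 9 had negative ones, with a list median of -0.0758. Of 13 luminal epithelium markers 9 were positive and 4 negative, with a list median of 0.0551. As list means per array, the ranges on day 16 and day 13 overlapped for luminal epithelium (8.54 to 8.90 and 8.27 to 8.81), stroma (10.22 to 10.65 and 10.49 to 10.84) and smooth muscle (6.63 to 8.10 and 6.85 to 7.71). The day 16 and day 13 ranges also overlapped for macrophages (5.79 to 6.44 and 5.66 to 6.53), lymphocytes and natural killer cells (3.54 to 4.14 and 3.16 to 3.78) and B and plasma cells (3.29 to 3.79 and 3.49 to 4.47), and for erythrocytes and platelets (2.53 to 2.62 and 2.54 to 2.72) and neutrophils and mast cells (3.37 to 3.55 and 3.09 to 3.83), whose members were mostly near the floor. Endothelial markers had the highest list median, 0.388, with 12 of 13 positive, and list means of 5.85 to 6.56 on day 16 and 5.73 to 6.39 on day 13. Their part in the differences above was not tested.

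Set beside the earlier days of the cycle, some genes moved the same way at both late steps and others turned. Means are given for days 5, 7, 13 and 16 of CN heifers. On day 7 array 5 stood far from its group, and the day 7 mean without it is added. DPP4 stood at 4.04, 3.85 (3.67 without array 5), 6.68 and 8.98, FAM167A at 3.46, 3.41 (3.40), 5.22 and 7.03, and SLC2A1 at 8.51, 8.54 (8.62), 9.95 and 11.33. Each of these 3 was highest on day 16. PSAT1 stood at 12.54, 12.78 (12.98), 11.03 and 8.63, ABRACL at 10.89, 10.89 (10.92), 10.24 and 9.14, and MSX1 at 13.35, 13.50 (13.59), 12.43 and 11.72, with the lowest means on day 16. CPN1, in contrast, was highest on day 13, at 7.63, 7.54 (7.99), 9.21 and 6.49, as was DGAT2 at 3.70, 5.71 (6.36), 7.42 and 4.79. SLC16A3 had its lowest mean on day 13, at 6.70, 6.47 (6.49), 5.20 and 6.59, as did ITGB3 at 10.17, 10.22 (10.26), 9.55 and 10.84, and OXTR at 6.86, 4.76 (3.79), 2.91 and 5.84. CRYGS (2.48, 2.35, 2.94 and 8.74) and TNFRSF18 (4.50, 4.35, 4.37 and 5.91) had day 5, 7 and 13 means close to each other. The steps into and out of day 13 share its 5 arrays, so a high or low day 13 mean moves both.

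**Figure D4:**
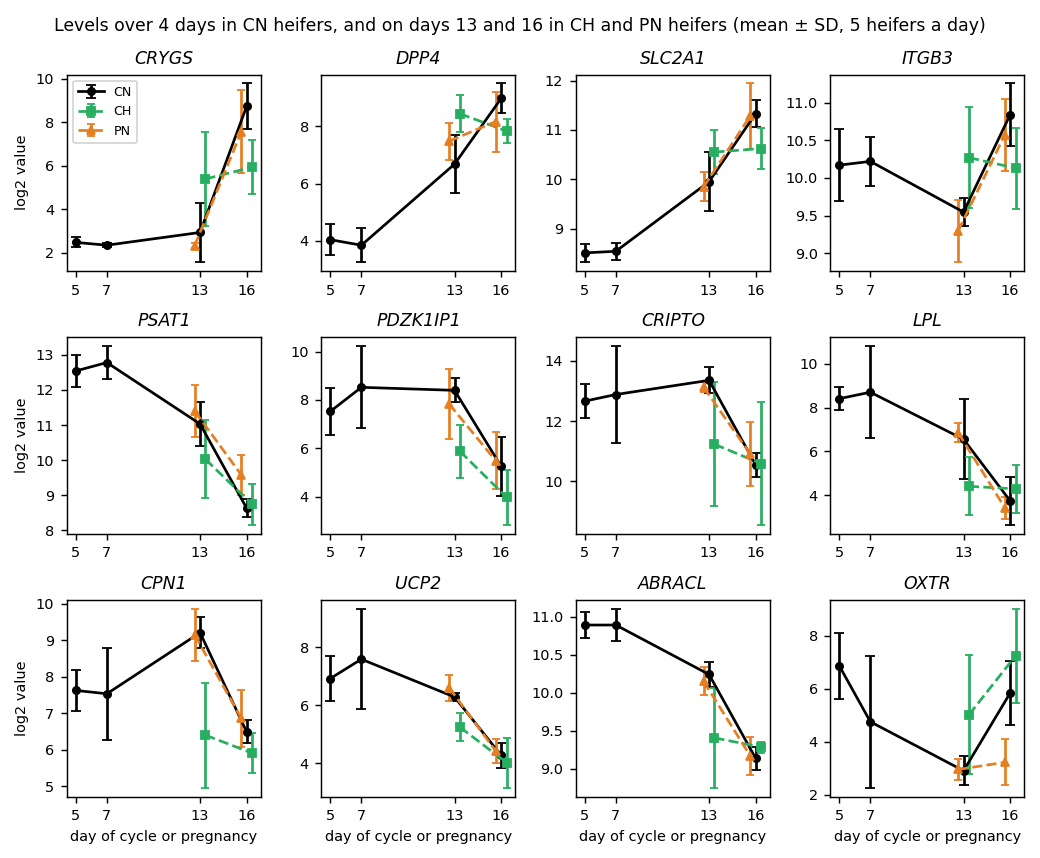
Mean log2 level with SD over days 5, 7, 13 and 16 for 12 genes in CN heifers (black), and on days 13 and 16 in CH (green, dashed) and PN heifers (orange, dashed), 5 heifers a day, day 7 array 5 of CN included. CRYGS is near the floor until day 13 and at 8.74 on day 16 in CN heifers, DPP4 and SLC2A1 climb at both late steps, and in CH heifers the day 13 mean is 5.39 for CRYGS, 6.40 for CPN1 and 9.41 for ABRACL.

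Over the same days in other heifers, whose courses share no array with the CN course, most of the falls were called in PN heifers and 1 was called in CH heifers. In PN heifers, where 2.38% of genes were called (1.32% higher, 1.06% lower), all 48 genes that fell in CN had a negative difference, and 38 of them were called, which is 79.2% of the CN falls and 39.2% of the 97 PN falls. Their median was -1.39 in PN and -1.36 in CN. Negative PN differences were common among all genes with a negative CN difference (70.1%). Of the 33 CN rises 30 were positive in PN and 14 were called, 42.4% of the CN rises and 11.6% of the 121 PN rises. Positive differences occurred in 61.6% of all genes with a positive CN difference. CA2 stood at 2.71 in PN, CRYGS at 5.24, TNFRSF18 at 1.57, LPL at -3.41 and SAA3 at -3.70. DPP4 stood at 0.68 (adjusted p = 0.826) and PRXL2A at -0.25.

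In CH heifers, where 0.415% of genes were called (0.186% higher, 0.229% lower), 44 of the 48 CN falls were negative with a median of -0.355, and DGAT2 alone was called, at -2.80 (adjusted p = 0.0199). Of the 33 rises 23 were positive with a median of 0.0918 and none was called. Negative and positive CH differences occurred in 43.5% and 57.8% of all genes of like sign in CN. The CH difference was smaller in size than the CN difference for all 33 rises and for 47 of the 48 falls. These genes were picked for a large CN difference, so these counts do not compare the courses. The test of the difference between courses does, and follows. In PH heifers, where 5.11% of genes were called (4.0% higher, 1.11% lower), 47 of the falls were negative and 16 were called, and 29 of the rises were positive and 15 were called. Arrays 1 and 4 of PH day 13 stood far from their group. Without them 46 of the falls were negative, with a median of -0.814 (-0.71 with them), and 29 of the rises were positive, with a median of 0.447 (0.508 with them). DGAT2 was the one gene called in all 4 courses, at -2.62 in CN, -2.96 in PN, -2.80 in CH and -2.94 in PH, or -3.13 in PH without those arrays.

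**Figure D5:**
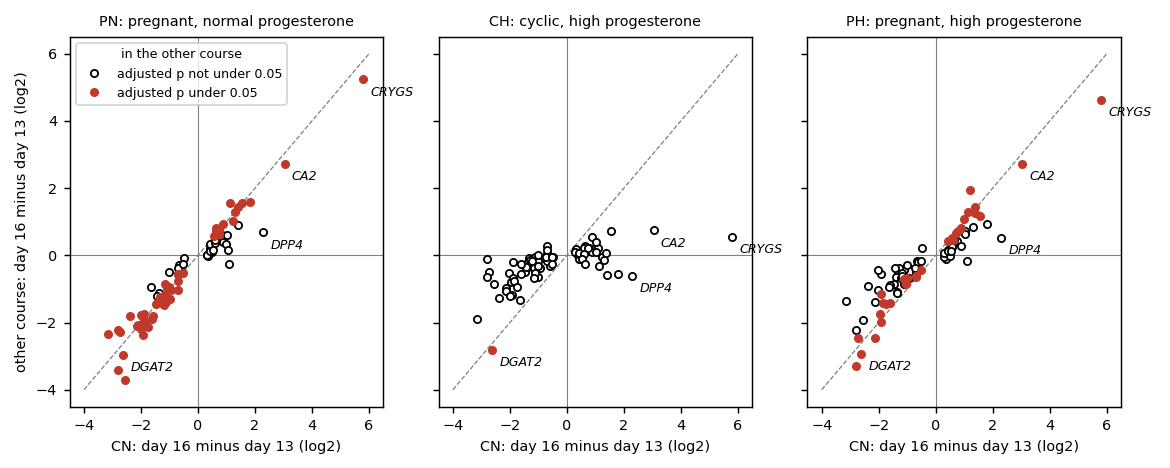
Day 16 minus day 13 in log2 units for the 81 genes called in CN heifers, with the CN difference across and the difference in PN (left), CH (middle) or PH heifers (right) upward, and a dashed line where both are equal. Most points in PN lie near the line, 38 falls and 14 rises being called there, while in CH all lie nearer to 0 than the line except DGAT2 at -2.80.

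A direct test of whether the CN course differed from the PN course called 33 probe sets (0.137%), all lower in CN, and 14 genes (0.153%), of which 10 were on the interferon list. None of the 81 genes called in CN was among them. MX2, an interferon-induced GTPase, differed between the courses by -7.00 ± 1.39 (adjusted p = 0.0147), with -1.22 in CN and 5.78 in PN. IFIT5, an interferon-induced RNA-binding protein, differed by -2.53 ± 0.44 (adjusted p = 0.00638), ZNFX1, a helicase of antiviral defence, by -2.65 ± 0.577 and XAF1, an interferon-induced regulator of apoptosis, by -3.29 ± 0.644. MX2 in CN was at 5.80 and 4.36 on day 13 arrays 1 and 4 and between 2.05 and 2.10 on the other 8 arrays. The number of probe sets called in this test depended on single arrays, and was 6 without day 13 array 1 of CN, 4 without array 4 of that group and 3 without day 13 array 1 of PN.

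Tested against the CH course, 10 probe sets (0.0416%) and 4 genes (0.0437%) differed, and CRYGS was the one gene of the 81 among them. Its difference of courses was 5.26 ± 1.05 (adjusted p = 0.0204), with 5.80 in CN and 0.54 in CH. In CH heifers its level was 5.93 ± 1.25 on day 16 and 5.39 ± 2.18 on day 13, and in CN heifers its SDs were 1.05 and 1.36. The standard error of this test pools all 16 groups. Some of these lie near the floor with small SDs, such as 0.101 on CN day 7 and 0.119 on PN day 13. PIK3IP1, an inhibitor of phosphatidylinositol 3-kinase, differed between the courses by 2.12, with 0.82 ± 0.274 in CN and -1.30 in CH, DCAF4 by 0.91 and DDX41, a helicase that senses DNA, by 0.82. DPP4 (2.90 ± 0.664), FAM167A (2.36 ± 0.528), SLC16A3 (1.99 ± 0.438) and SPNS1, a lysosomal transporter (0.89 ± 0.201), shared an adjusted p of 0.0525, and ABRACL stood at -0.98 ± 0.229 with 0.0541. These 5 were called when the 5 arrays of the series farthest from their group means were left out (adjusted p between 0.00134 and 0.0417), an alternative chosen after seeing the data. None of those arrays was from day 13 or 16 of CN or CH heifers. In a limma fit of the courses' own arrays no probe set was called, with 2584 at an unadjusted p under 0.05. OXTR, with 2.92 in CN and 2.22 in CH, had adjusted p of 0.0764 and 0.271 in the separate courses.

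The calls rested on a spread shared by all 79 arrays. In a fit of the 10 CN arrays alone 31 of the 81 genes were called, and 30 of the 81 kept their call in all 10 omissions of 1 array. Called in both ways were 20 genes: CRYGS, FRMD4A, METTL3 and GDI2 among the rises, and CRIPTO, CPN1, PSAT1, PHGDH, UCP2, LRAT, SRPX, MRPS36, PEPD, TXNRD1, NEBL, ASRGL1, PLEKHG1, ABRACL, CNOT1 and THBS1 among the falls. With the 10 arrays alone CA2 and DPP4 had adjusted p of 0.0999 and 0.0951, SLC2A1 and SLC16A3 0.0862 and 0.098, DGAT2 0.0562, PDZK1IP1 0.0587 and LPL 0.255. LPL and CA2 each lost their call in 7 of the 10 omissions, GJB5, MANBA and FKBP4 in 8, WNT11 in 9, and PRSS8 in 6. DGAT2 lost it without day 13 array 1 or without day 16 array 4 or 5, SAA3 without day 13 array 1 or 3 or day 16 array 4, FAM162A without day 13 array 1, 3 or 5, SLC16A3 without day 13 array 1 or 2, MSX1 without day 13 array 1 or 5, and ITGB3 without day 16 array 3.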

How the data were processed

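The authors deposited log2 values per probe set for 79 Affymetrix bovine arrays, 1 heifer each, and these values were used as deposited. The submitters' processing notes name limma, RMA and GCRMA. Whether RMA or GCRMA made these values, and in which version, is not given in the sources used here. Scanner files were not used here. The values ran from 0.948 to 15.37, and means under 3, found for 32.2% of probe sets, were taken as near the floor. Of 24128 probe sets 112 array controls were left out. Of the 24016 tested, 13292 had 1 symbol in the platform annotation, 86 several and 10638 none, and 13263 gene identifiers were found in the current RefSeq table with 0 symbols changed. Where several probe sets named a gene the brightest on average stood for it, which gave 9155 genes, 2913 of them with several probe sets.

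All 79 arrays were fitted as 16 group means with limma 3.58.1 (lmFit and eBayes, R 4.3.3; 63 residual and 1.49 prior degrees of freedom), with Benjamini-Hochberg adjustment over all probe sets and a threshold of 0.05. Figures used matplotlib 3.10.9 and tables pandas 2.3.3 under Python 3.11.15. Groups came from the labels. Contrasts were day 16 minus day 13 in CN heifers, the same in PN, CH and PH heifers, and the CN course minus the PN or the CH course. In a test on simulated data at this design, 79 of 100 probe sets changed by 1 log2 unit and 99 of 100 changed by 2 were recovered, with 6 false calls. The simulated noise was normal, independent and of equal spread in all groups, which the real arrays need not follow. These rates therefore check the fit and are not error rates of the real calls. The number of arrays limits the precision. Each p-value sets a difference against a spread between heifers that was pooled over all 16 groups, not over the 10 compared heifers alone.

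Named were the 15 largest rises and 15 largest falls among called genes, called members of 35 lists (893 symbols, 687 genes measured) up to 4 in each direction or the 2 largest differences where none was called, and 16 genes of prior interest. Any other gene was named after its values were seen. The comparison, the genes and the lists were chosen with earlier results of these data known. Alternatives changed the arrays fitted, normalization, the filter on dim probe sets, adjustment, moderation, array weights and the replicate number as a block, and left out each array in turn. No promoter, protein or genome sequence was used here.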

Additional observations from a re-analysis of the deposited data

Results flagged for a closer look

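Of 236 groups of 5 arrays examined (118 genes on 2 days), 18 had 1 array far from the other 4, and chance sets apart about 1 in 20 groups. On day 16 array 2 stood high for CRIPTO (11.24), BOLA-DQB (2.82) and ESR1 (2.71) and low for OXTR (3.77) and PRXL2A (13.04). Array 1 of that day stood low for CPN1 (5.94) and for BOLA (2.41), a class I antigen gene whose next array was at 11.32. Array 5 stood high for GJB5 (7.24) and low for INSIG1 (9.06), and array 3 low for ZCCHC10 (5.31). On day 13 array 4 stood apart for 5 called genes, low for EFNA4 (6.43), EPHX2 (10.50), MRPS36 (11.01) and RCN1 (9.84) and high for RRM1 (10.94). Array 2 of day 13 stood high for CRYGS (5.36) and BCL6B (2.28), and array 1 high for BOLA-DQB (5.92), a class II antigen gene. In these 5 genes array 4 was the day 13 array nearest to the day 16 values.

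Courses differed by the test of the difference itself for 8 named genes. CRYGS (5.26), PIK3IP1 (2.12), DCAF4 (0.91) and DDX41 (0.82) had a higher course in CN than in CH heifers. MX2 (-7.00), XAF1 (-3.29), ZNFX1 (-2.65) and IFIT5 (-2.53) had a lower course in CN than in PN heifers.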

How the results depend on the processing

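Between days 16 and 13 of CN heifers 160 probe sets were called. The count was 753 (423 higher, 330 lower) with array weights, 284 without the 5 arrays of other groups farthest from their means (an alternative chosen after seeing the data), and 102 when adjusted over probe sets with 1 symbol, where fewer were tested. It lay between 94 and 195 when 1 array was left out, with 99 without day 13 array 1 and 94 without day 13 array 5. The other alternatives gave 112 to 191. For the other 2 tests the 33 probe sets against PN became 133 with array weights, 76 in the fit of the courses' own arrays and 53 with days 13 and 16 only, and 3 to 62 with 1 array left out. Against PN the count fell to 3, 8, 6 and 15 without PN day 13 arrays 1, 2, 3 and 5, to 7 without PN day 16 array 3 or 5, to 6 and 4 without CN day 13 arrays 1 and 4, and to 18, 16 and 16 without CN day 16 arrays 2, 4 and 5. It was 62 without PN day 13 array 4. The 10 probe sets against CH (7 higher, 3 lower) became 1807 with array weights, 72 without the 5 far arrays, 23 (17 higher, 6 lower) with quantile normalization, 20 adjusted over probe sets with 1 symbol, 19 with brighter probe sets only and 17 (9 higher, 8 lower) with median centring. They became 0 in the limma fits of the courses' own arrays and of days 13 and 16 only, where 2584 and 1951 had an unadjusted p under 0.05. Leaving out 1 array gave 2 to 74. This count was 2 and 29 without CH day 13 arrays 3 and 5, 32, 74, 3 and 21 without CH day 16 arrays 1, 2, 4 and 5, 6 and 74 without CN day 13 arrays 3 and 4, and 16 without CN day 16 array 4. The cause of these shifts was not tested.

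Of 111 values of named genes, 50 lost their call in the fit of the 10 arrays, 34 with days 13 and 16 only and 6 with median centring, and 6 gained one with array weights. Of 1110 values with 1 array left out 275 lost their call, and 11 changed sign in genes near 0. MEP1B reached 0.0662 with array weights and lay between -0.22 and 0.24 with 1 array left out, SLC5A1 between -0.37 and 0.10, PTGS2 between -0.345 and 0.113 and ESR1 between -0.146 and 0.0405.

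With the replicate number as a block 167, 30 and 12 probe sets were called in the 3 tests. The labels do not say that the numbers pair heifers, and each heifer had a single day of slaughter. In the values, deviations of arrays with the same number on days 16 and 13 correlated at -0.0382, -0.168, 0.0027, -0.0847 and 0.0564. Of the 5 day 16 arrays 0 correlated best with their own number. Levels near the floor, 5 heifers a day and tissue that mixes cell types limit what small differences show.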

Other observations

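Further list members were separate between the days without a call. RBP4, the plasma carrier of retinol, averaged 9.39 on day 16 and 8.65 on day 13, a difference of 0.74 ± 0.304 (adjusted p = 0.405). KIT, the receptor of stem cell factor that marks mast cells, averaged 7.27 on day 16 and 8.14 on day 13, a difference of -0.87 ± 0.26 (adjusted p = 0.113). Of the other mast cell markers measured, FCER1A differed by 0.68 ± 0.483 and HDC, near the floor, by -0.001, neither with a call. VWF, von Willebrand factor of endothelium, stood at 3.62 on day 16 and 3.23 on day 13 without overlap (adjusted p = 0.64). TIMP4, an inhibitor of matrix metalloproteinases, stood at 3.25 on day 16 and 2.54 on day 13 (0.71 ± 0.248, adjusted p = 0.245). NDUFA5, a subunit of respiratory complex I, differed by 0.23 ± 0.114 and GAPDH, a glycolytic enzyme, by 0.25 ± 0.157, each without overlap. Apart from FCER1A and HDC, these genes were picked because their days did not overlap, as was the case for 3.7% of all genes.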
